A study of Mus musculus with 99 samples.

Results

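The residual H2AK119ub1 peaks are the regions at which ChIP-seq for this histone mark still gave a called peak after OHT in both lines left without active RING1B. They were selected as the peaks of the RING1B I53S +OHT list that shared at least 1 bp with a peak of the Parental +OHT list. This left 2681 of 3120 RING1B I53S +OHT peaks (85.9%), out of 408060 peaks in all 74 lists of the series. They were thus chosen by the presence of a peak in these 2 libraries, and their scores and lengths there are given as a description only. The study asked what RING1B and its catalytic activity contribute to Polycomb binding and repression in mouse embryonic stem cells (ESCs), by ChIP-seq and RNA-seq. All Parental, RING1B WT and RING1B I53S cells lack RING1A, carry floxed RING1B alleles and express a creERT2 recombinase from ROSA26. Parental cells have no transgene, whereas the RING1B WT and RING1B I53S lines stably express tagged wild-type RING1B or the I53S missense form, which the study uses as catalytically inactive. Cells received 0.5 µM 4-hydroxytamoxifen (OHT) for 72 h (+OHT) or ethanol as vehicle (−OHT), and MTF2 and JARID2 were also profiled at 48 h. Before OHT the transgenic lines hold endogenous and exogenous RING1B together. MTF2 KO derivatives of the 3 lines and a separate Eed fl/fl line, treated in the same way, were used for comparison. All cells were kept in 2i/LIF medium.

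Polycomb repressive complex 1 (PRC1) places a single ubiquitin on histone H2A, the mark H2AK119ub1, through its RING1A or RING1B subunit, and PRC2 methylates histone H3 at lysine 27. In ESCs both complexes gather at CpG islands of silent developmental genes. Canonical PRC1 contains PCGF2 and a CBX protein such as CBX7, which reads H3K27me3. Variant PRC1 contains RYBP and other PCGF subunits such as PCGF6. PRC2 is built around SUZ12, EED and EZH2 and comes in one form with MTF2 and EPOP and another with JARID2 and AEBP2, of which JARID2 and AEBP2 bind H2AK119ub1.

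To show the kind of DNA that lies under these regions, promoter sequences of 5 genes are printed from RefSeq (GRCm38.p6). Each holds the 200 most upstream bases of the RefSeq promoter window, 5′ to 3′ on the strand of the gene, with CG dinucleotides in capitals. Grb10, Neurog1 and Hs3st3b1 were taken because they are the 3 best-ranked residual peaks over both score columns with such a window inside the peak. Ckb had the highest RNA level in Parental −OHT cells among genes with such a window. Hoxa2 is the comparator, picked after its values were seen: its untreated peak had the highest score among lost peaks, defined below, that hold such a window of a gene with no residual peak. The windows are chr11:12028022-12028221 (minus strand) for Grb10, chr13:56252231-56252430 (minus) for Neurog1 and chr11:63922335-63922534 (minus) for Hs3st3b1. Those of Ckb and Hoxa2 are chr12:111672389-111672588 (minus) and chr6:52164882-52165081 (minus).
Grb10: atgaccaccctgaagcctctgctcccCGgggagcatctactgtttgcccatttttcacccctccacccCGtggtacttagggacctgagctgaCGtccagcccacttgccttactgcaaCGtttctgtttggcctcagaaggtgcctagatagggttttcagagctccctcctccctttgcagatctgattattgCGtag
Neurog1: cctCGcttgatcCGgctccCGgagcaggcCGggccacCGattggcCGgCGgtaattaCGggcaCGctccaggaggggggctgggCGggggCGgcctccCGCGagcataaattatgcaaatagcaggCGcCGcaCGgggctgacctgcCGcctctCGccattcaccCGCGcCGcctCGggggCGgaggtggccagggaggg
Hs3st3b1: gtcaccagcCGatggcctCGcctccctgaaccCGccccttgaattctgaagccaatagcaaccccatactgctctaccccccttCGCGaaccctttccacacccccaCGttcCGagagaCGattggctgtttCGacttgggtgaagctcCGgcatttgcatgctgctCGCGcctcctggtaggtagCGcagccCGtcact
Ckb: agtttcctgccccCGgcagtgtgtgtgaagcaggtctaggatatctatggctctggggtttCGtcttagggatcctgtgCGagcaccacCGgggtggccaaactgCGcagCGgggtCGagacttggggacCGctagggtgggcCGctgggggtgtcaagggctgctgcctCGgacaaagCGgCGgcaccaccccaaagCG
Hoxa2: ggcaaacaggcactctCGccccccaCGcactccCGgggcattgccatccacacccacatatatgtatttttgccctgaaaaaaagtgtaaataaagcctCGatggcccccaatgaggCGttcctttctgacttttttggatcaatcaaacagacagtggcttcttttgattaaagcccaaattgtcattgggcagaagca
CG dinucleotides numbered 5 in the Grb10 window, 23 in that of Neurog1, 14 in that of Hs3st3b1, 13 in that of Ckb and 5 in that of Hoxa2. Over 32851 RefSeq promoters the same 200 bases held a median of 4 (quartiles 2 and 11). The Neurog1, Hs3st3b1 and Ckb windows lay above the upper quartile, and those of Grb10 and Hoxa2 did not.

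Residual peaks were short and mostly of modest score. Lengths ran from 352 to 13131 bp with a median of 1180 bp, and the peaks covered 4.01 Mb in all. The peak score is the −log10 p-value from the peak caller, of at least 10 in every list, and its median was 16.2 in RING1B I53S +OHT and 23.9 for the best overlapping peak in Parental +OHT. In 2627 of the residual peaks (98.0%), the Parental +OHT peak covered at least 50% of the length. From the side of Parental +OHT, 2613 of 5450 peaks (47.9%) overlapped a residual peak. Just inside the rule, the smallest overlaps were 107 bp near Gm5814 on chromosome 17, 198 bp on chromosome 11 and 214 bp near Klhl40 on chromosome 9, with RING1B I53S +OHT scores of 10.4 to 11.5. Just outside it, a peak near Uts2r on chromosome 11 missed the nearest Parental +OHT peak by 76 bp, and another on chromosome 8 by 144 bp, with scores of 10.6 and 10.8. A list marks where a library rose above input. It does not say how much ubiquitin was left, because it holds neither reads nor a spike-in scaling. The study itself reports a global loss of the mark in both treated lines by western blot. From ChIP-seq with spike-in scaling it reports that the mark was lost completely at PRC1 targets in RING1B I53S cells. Each condition had 1 H2AK119ub1 library, so these peaks have no replicate check.

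The regions that kept a peak were the long, high-scoring ones of untreated cells. Of 12648 H2AK119ub1 peaks in Parental −OHT cells, 2267 (17.9%) overlapped a residual peak and 8437 (66.7%) overlapped a peak of neither OHT list; the latter are called lost peaks here. Untreated peaks with a residual peak had a median length of 2199 bp and score of 24.4, against 1105 bp and 12.9 for lost peaks. Among the 1000 untreated peaks with the highest score, 69.2% held a residual peak, against 2% of the 1000 with the lowest. By length the shares were 51.6% of the 1000 longest and 3.1% of the 1000 shortest. As a description, since the rule used these lengths and the lists differ in line and number of peaks, over 2283 residual peaks with an untreated peak, the residual length was a median of 0.549 of the untreated peaks spanning it, and 85.2% were shorter. H2AK119ub1 was called in Parental −OHT cells at 85.2% of residual peaks (95% Wilson interval 83.8 to 86.5) and in RING1B WT +OHT cells at 93.5% (92.5 to 94.4). These and all later intervals cover counting error over peaks only, and neighbouring peaks are not independent.

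Residual peaks sat at gene starts. A promoter, taken as 2.5 kb to either side of any GENCODE M21 start, was overlapped by 2412 residual peaks (90.0%, 88.8 to 91.0), while 106 lay in exons, 73 in introns and 90 between genes. Lost peaks were at promoters in 47.5% (46.5 to 48.6). RING1B I53S +OHT peaks with no Parental +OHT partner were there in 57.9% (53.2 to 62.4) and Parental +OHT peaks with no RING1B I53S partner in 86.9% (85.6 to 88.1). The median distance from the peak centre to the nearest start was 572 bp for residual and 3740 bp for lost peaks. Chromosome 11 held 575 residual peaks (21.4%, 19.9 to 23.0) and 5.43% of gene names. It held 20.0% of lost peaks too, and between 7.14% and 82.6% of the peaks of each ChIP list (median 16.0%). Without chromosome 11 the promoter share was 91.1%. The part of chromosome 11 in the results below was not tested, and values without it are given for only some of them. Other shares also differed there. RYBP in RING1B I53S +OHT cells was called at 24.5% of the residual peaks on chromosome 11, against 12.6% of all. PCGF6 in Parental +OHT cells was called at 45.4% of those on chromosome 11, against 31.6% of all.

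CpG content set residual peaks apart from lost ones. In the central 500 bp, the ratio of observed to expected CpG had a median of 0.712 at residual peaks and 0.211 at lost peaks, and GC content was 62.8% against 51%. Windows with at least 50% GC and a ratio of at least 0.6, the composition of a CpG island, made up 65.6% of residual peaks (63.8 to 67.3) and 1.77% of lost peaks (1.51 to 2.07). Lost peaks at promoters held them in 2.67% (2.21 to 3.22). Annotated starts as a whole reached 31.4%, Parental +OHT peaks without a RING1B I53S partner 49.7% (47.8 to 51.5), and the RING1B peaks of RING1B WT +OHT cells 70.4% (68.9 to 71.8). Lost peaks also lay further from starts, and the part of that distance in the gap was not tested.

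**Figure D1:**
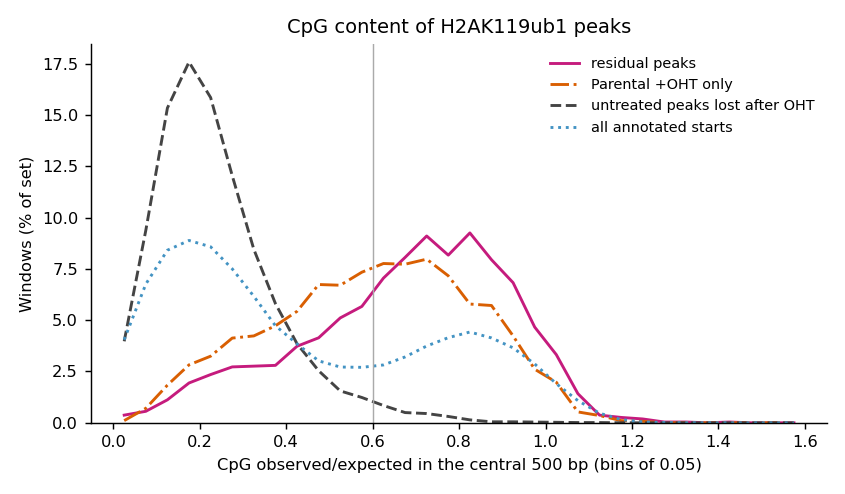
The x axis is the ratio of observed to expected CpG in the central 500 bp and the y axis the percent of windows of each set per bin of 0.05, for residual peaks, Parental +OHT peaks without a RING1B I53S partner, lost peaks and all annotated starts. Residual peaks (median 0.712) lie to the right of lost peaks (median 0.211), with the vertical line at 0.6.

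Before OHT, residual peaks were places of PRC1. RING1B was called at 71.7% of them in Parental −OHT cells (69.9 to 73.3), PCGF2 at 66.7% (64.8 to 68.4), CBX7 at 65.3% (63.5 to 67.1), PCGF6 at 60.2% (58.4 to 62.1) and RYBP at 41.0% (39.1 to 42.9). At lost peaks the same libraries gave 16.9% for RING1B, 20.4% for PCGF2, 23.4% for CBX7, 9.7% for PCGF6 and 4.0% for RYBP. In Parental +OHT cells, CBX7 was left at 1.6% of residual peaks (1.2 to 2.2), PCGF2 at 0.7% (0.5 to 1.1), RYBP at 0.9% (0.6 to 1.3) and RING1B at 2.0% (1.5 to 2.6). Those lists were short, with 59 peaks for CBX7, 89 for PCGF2, 61 for RYBP and 690 for RING1B in all, which by itself bounds the shares. PCGF6, the subunit of a variant complex with DNA-binding factors such as MGA, kept a peak at 31.6% (29.9 to 33.4). Of the 54 residual peaks with a RING1B peak in Parental +OHT, 36 lay on chromosome 11, and without that chromosome the share was 0.9%. In RING1B I53S +OHT cells RING1B was called at 10.3% (9.2 to 11.5; 7.7% without chromosome 11), PCGF2 at 15.4% (14.1 to 16.8), RYBP at 12.6% (11.4 to 13.9), PCGF6 at 23.4% (21.9 to 25.1) and CBX7 at 0.7% (0.5 to 1.1). RING1B WT +OHT cells had RING1B at 62.0% (60.1 to 63.8), PCGF2 at 57.1% (55.2 to 59.0) and CBX7 at 47.1% (45.3 to 49.0). They had PCGF6 at 70.9% (69.2 to 72.6) and RYBP at 21.1% (19.6 to 22.7), so the RYBP share was also below that of Parental −OHT. The RYBP list held 2989 peaks in Parental −OHT, 1177 in RING1B WT +OHT and 697 in RING1B I53S +OHT. Residual H2AK119ub1 peaks in the treated Parental and RING1B I53S lines were rarely peaks of RING1B in the same cells. In Parental +OHT cells the deletion of RING1B sets this beforehand. In RING1B I53S +OHT cells the RING1B list held 1287 peaks, 66.8% of them on chromosome 11. The RING1B peaks of RING1B WT +OHT cells had a near share in that list, 9.0%, so a low share was not particular to residual peaks.

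SUZ12, MTF2, EPOP and H3K27me3 still had a peak at many of these regions after OHT, whereas AEBP2 and JARID2 had one at fewer. SUZ12, its core subunit, was called at 86.1% of residual peaks in Parental −OHT cells (84.8 to 87.4), 76.9% in Parental +OHT (75.2 to 78.4), 58.2% in RING1B I53S +OHT (56.3 to 60.04) and 81.5% in RING1B WT +OHT (79.9 to 82.9). Lost peaks held SUZ12 at 33.5%, 13.1%, 5.8% and 24.6% in the same order. H3K27me3 was called at 74.3%, 60.5%, 42.2% and 70.2% of residual peaks, and at 64.7%, 26.1%, 19% and 56.2% of lost peaks. EPOP, a subunit of the MTF2-containing form, was found at 76.8%, 45.7%, 47.3% and 77.2% of residual peaks. AEBP2, of the JARID2-containing form, went from 26.8% in Parental −OHT to 0.3% in Parental +OHT and 0.4% in RING1B I53S +OHT, and was at 29.0% in RING1B WT +OHT. In RING1B I53S +OHT cells 1024 residual peaks (38.2%) had both SUZ12 and H3K27me3 and 1013 (37.8%) had neither. At the RING1B peaks of RING1B WT +OHT cells, SUZ12 was called at 79.1% in Parental +OHT and 56.3% in RING1B I53S +OHT. H3K27me3 was at 67.3% and 43.1% of them in the same order, and EPOP at 47.3% in RING1B I53S +OHT. Shares of this size after OHT were thus not particular to residual peaks. These shares depend on how many peaks each library gave: over these 4 conditions SUZ12 lists held 3475 to 9321 peaks and AEBP2 lists 14 to 1475.

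**Figure D2:**
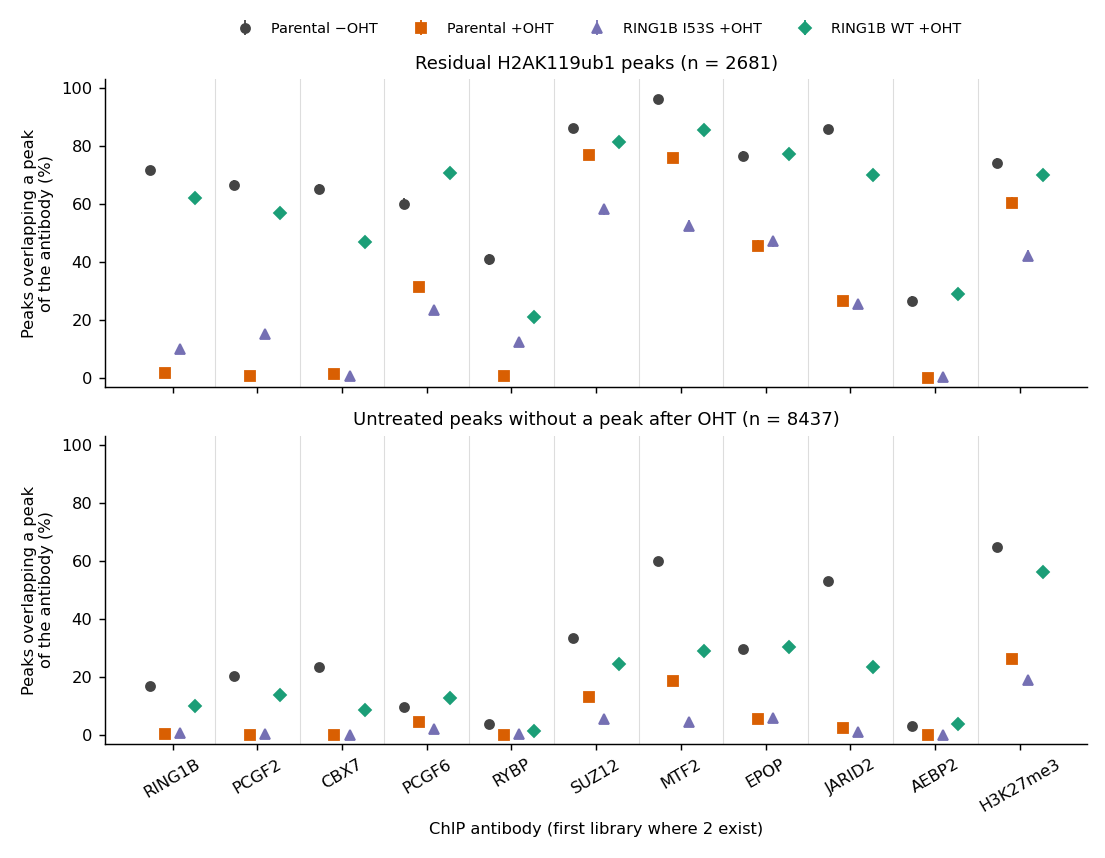
Each point is the percent of H2AK119ub1 peaks that overlap a peak of the antibody on the x axis, above for the 2681 residual peaks and below for the 8437 lost peaks, in 4 conditions; bars are 95% Wilson intervals, mostly smaller than the points. At residual peaks CBX7 falls from 65.3% to 1.6% in Parental cells, while SUZ12 goes from 86.1% to 76.9%.

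MTF2 and JARID2, which mark the alternative forms of PRC2, were followed over time. MTF2 was called at 96.4% of residual peaks in Parental −OHT cells (95.6 to 97.0), 82.9% at 48 h (81.4 to 84.3) and 76.0% at 72 h (74.4 to 77.6). JARID2 went from 85.9% (84.6 to 87.2) to 51.1% (49.2 to 53.03) and 26.8% (25.2 to 28.5) in the same cells. In RING1B I53S cells MTF2 was at 86.5% without OHT, 81.2% at 48 h, and 52.6% and 74.2% in the pair of libraries at 72 h. JARID2 there was at 68.9%, 25.7%, and 25.6% and 11%. The pair of 72 h libraries differed by more than the counting error, so the size of the 72 h values depends on the library. RING1B WT cells held MTF2 at 88.5% without OHT, 85.1% at 48 h, and 85.5% and 79.0% at 72 h. Their JARID2 shares were 73.1%, 67.4%, and 69.9% and 67.8%. At lost peaks MTF2 in Parental cells was at 59.9%, 24.5% and 18.8%, and JARID2 at 53%, 8.2% and 2.4%. In both 72 h libraries of RING1B I53S cells 1363 residual peaks (50.8%) held MTF2 and 280 (10.4%) held JARID2. The RING1B peaks of RING1B WT +OHT cells had near shares in these libraries. MTF2 was at 51.6% and 76.8% of them, and JARID2 at 24.3% and 9.6%.

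**Figure D3:**
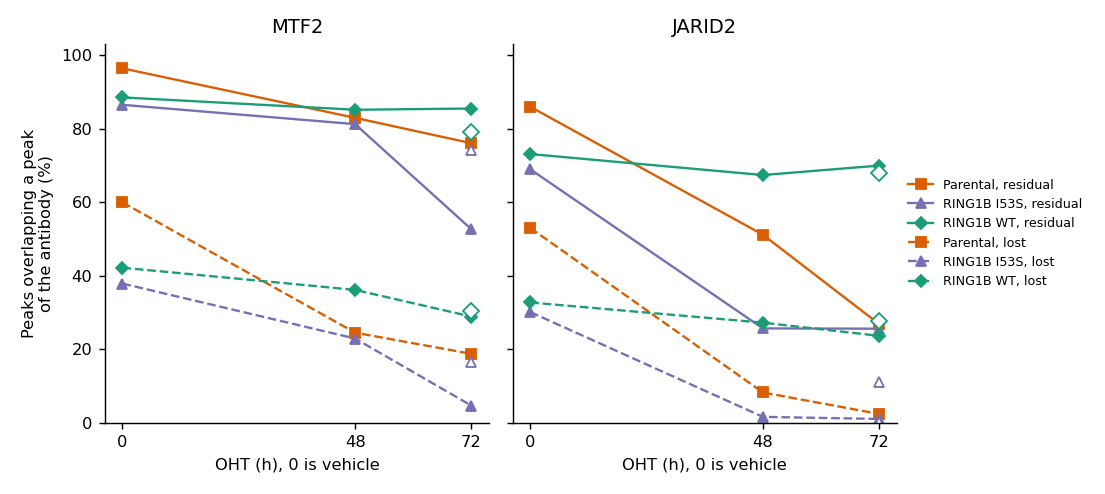
The x axis is hours of OHT, with 0 for vehicle, and the y axis the percent of residual (solid) or lost (dashed) H2AK119ub1 peaks that overlap a peak of MTF2 (left) or JARID2 (right). Open symbols are the second library at 72 h; in Parental cells MTF2 at residual peaks ends at 76.0% and JARID2 at 26.8%.

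Without MTF2, less PRC2 was found on these regions. In Parental MTF2 KO cells SUZ12 was called at 45.7% of residual peaks without OHT (43.9 to 47.6) and 15% with OHT (13.7 to 16.4), and H3K27me3 at 30.1% and 2.1%. On chromosome 11 lay 67.2% of the SUZ12 peaks of the treated Parental MTF2 KO library, and without this chromosome its share of residual peaks was 8.0% (6.9 to 9.2). RING1B I53S MTF2 KO cells with OHT gave 3.7% for SUZ12 (1.8% without chromosome 11) and 3.5% for H3K27me3 (2.2%). RING1B WT MTF2 KO cells with OHT had SUZ12 at 51.5% and H3K27me3 at 28.8%. Some of these lists were short, which by itself bounds the shares. The H3K27me3 list of treated Parental MTF2 KO cells held 332 peaks, 59.6% of them on chromosome 11, against 7852 without OHT. The SUZ12 list held 1801 peaks in treated Parental MTF2 KO cells and 706 in RING1B I53S MTF2 KO cells.

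Residual peaks were not uniform. The 1921 with a RING1B peak in Parental −OHT cells had a median length of 1390 bp, and the 760 without one 861.5 bp. The former held CBX7 in 87.5% (86.0 to 88.9), H3K27me3 in 91.8% (90.5 to 92.9) and SUZ12 in 97.2% (96.4 to 97.9) before OHT. The latter held CBX7 in 9.2% (7.4 to 11.5), H3K27me3 in 30.3% (27.1 to 33.6), SUZ12 in 58.0% (54.5 to 61.5) and MTF2 in 89.6% (87.2 to 91.6). In RING1B I53S +OHT cells SUZ12 was at 72.4% of those with RING1B (70.3 to 74.3) and 22.4% of those without (19.5 to 25.5). CpG island composition was found at 67.5% (65.3 to 69.5) and 60.8% (57.3 to 64.2). A set of 152 residual peaks had an H2AK119ub1 peak neither in Parental −OHT nor in RING1B WT +OHT cells. These were short, with a median of 643.5 bp, and 80.9% (73.9 to 86.4) had island composition. SUZ12 was called at 28.9% of the 152 in RING1B I53S +OHT cells (22.3 to 36.6) and H3K27me3 at 3.9% (1.8 to 8.3). Peaks of other antibodies were common: a median of 35 of the 66 other ChIP libraries had a peak at a residual peak, and 36 residual peaks met none. The 4 input lists, of 9 to 19 peaks each, came from H3K27me3 inputs of MTF2 KO lines. No list of an H2AK119ub1 input was available, so they do not check the H2AK119ub1 libraries against their own inputs. Of all members, 9 overlapped a peak in at least 1 of the 4 input lists, among them a 390 bp peak at Gm10800 on chromosome 2 that also ranked among the 10 best. That peak and 5 others of the 9 lay where all 4 inputs had a peak, so enrichment there is not specific to an antibody.

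The residual peak at Grb10, an imprinted gene for a growth-restraining adaptor protein, spanned chr11:12020829-12033959 (13131 bp) with scores of 777 in RING1B I53S +OHT and 324 in Parental +OHT, within untreated peaks of 23370 bp. Neurog1, a proneural bHLH factor, had 3817 bp at chr13:56250702-56254518 with scores of 195 and 191. Ntn1, the axon guidance cue netrin, had 5357 bp with scores of 191 and 154. Behind these came Zfp36l2 (154 and 131), Hs3st3b1 (128 and 160), Bahcc1 (137 and 125), Fgfr2 (111 and 127), Irf2bpl (115 and 119.3) and Plxnd1 (101 and 115). At each of the 10 best-ranked peaks the best score in Parental −OHT cells was below both OHT scores. It was 274 at Grb10, 87.2 at Neurog1, 81.1 at Ntn1 and 33.2 at Zfp36l2. The ranking used the OHT scores, and a score does not give the amount of ubiquitin. Irf2bpl stood apart from the others named, with no peak of RING1B in Parental −OHT cells and only 9 of 66 other libraries with a peak. In RING1B I53S +OHT it had no peak of SUZ12, MTF2 or H3K27me3 but had one of RING1B (score 14.7). Among the best-ranked peaks, those at Grb10, Neurog1, Ntn1, Zfp36l2, Hs3st3b1, Bahcc1 and Plxnd1 also had a RING1B peak in RING1B I53S +OHT. Those at Fgfr2 and Gm10800 had none. Among other long residual peaks was one of 9674 bp at Skor1. Outside promoters the longest was 6777 bp on chromosome 9, which also overlapped an input peak. Others among the longest there lay on chromosome 11, with a nearest start at Gm11611, Tbx2 and Nsf.

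Genes with a start within 2.5 kb of a residual peak numbered 2937, of which 2269 (77.3%) are protein coding. All were in the count table, 2246 passed the filter on low counts over the 12 RNA-seq libraries, 691 did not, and 142 had no count. The filter looked at all groups together. A gene near 0 before OHT could thus pass through its treated libraries alone, which can raise the share called higher among tested genes. Depth was 8140106 to 12743460 counted reads over the 12 libraries and 6957248 to 9443814 over the 4 of Eed fl/fl cells, with 2 replicates per group. The transcript of Rnf2, which encodes RING1B, differed by −0.55 between Parental +OHT and −OHT on the log2 scale, and was not called. Which exons the deletion removes is not given in the sources used here, so this count per gene does not check the labels. Per length, the protein-coding genes had a median of 1.35 RPKM in Parental −OHT cells (reads per kilobase of exon, scaled to depth), against 0.986 for all protein-coding genes. Genes whose residual peak came with RING1B were low, at 0.615 RPKM, as were genes of lost peaks at 0.416 RPKM. Genes whose residual peak lacked RING1B were active, at 6.43 RPKM, and only 3.88% of them (2.64 to 5.67) were under 0.1 RPKM, against 25% (23 to 27.2) of those with RING1B.

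In OHT-treated Parental cells, genes at residual peaks rose far more often than they fell. By edgeR's quasi-likelihood test, where a call needs 1.5 or more on the log2 scale in size and an adjusted p under 0.05, 731 of 2246 were higher (32.5%, 30.6 to 34.5) and 33 lower (1.47%). Over all 18154 genes tested 15.1% were higher and 1.83% lower. With no filter on low counts, 773 of 2795 residual-peak genes were higher, beside 3013 of all 37779. In RING1B I53S cells 669 were higher (29.8%, 27.9 to 31.7) and 14 lower, beside 12.8% and 1.04% of all genes. In RING1B WT cells 56 were higher (2.49%, 1.93 to 3.22) and 2 lower, beside 1.34% and 0.0386% of all genes. Median log2 fold changes were 0.68, 0.65 and 0.21 in Parental, RING1B I53S and RING1B WT cells, and 0.03, 0.01 and 0.02 over all genes tested. The calls shared 604 genes that were higher in Parental and in RING1B I53S cells, out of 731 and 669. Each line was set against its own vehicle libraries. The RING1B WT count rested on single libraries, since 5 genes were called without replicate 2 of RING1B WT −OHT and 7 without replicate 2 of RING1B WT +OHT. A rise was not particular to residual peaks, since 574 of 1452 tested genes of lost peaks (39.5%, 37.0 to 42.1) were higher in Parental cells.

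The difference between lines was tested by itself. The OHT effect in RING1B WT cells was below that in Parental cells at 82 genes (3.65%) and above it at 7 (0.312%), beside 1.1% and 0.435% of all genes. Between RING1B I53S and Parental cells it differed at 0 genes in either direction, as it did over all genes (0% and 0%). At an unadjusted p under 0.05, 32 were above and 49 below, beside 182 and 306 of all 18154 genes, and DESeq2 also called 0. These differences share the Parental libraries with the Parental comparison. The 89 genes called for RING1B WT against Parental cells became 25 without replicate 1 of RING1B WT +OHT and 34 without replicate 2 of Parental +OHT. In Eed fl/fl cells, where OHT deletes a core PRC2 subunit, 0 of 2303 tested genes were higher and 0 lower by edgeR, beside 0.00795% and 0% of all genes. At an unadjusted p under 0.05, 156 were higher and 51 lower, beside 783 and 589 of all 25170 genes. DESeq2 called 4 and 1 of 2833, beside 19 and 13 of all 50481 genes. The median log2 fold change by edgeR was 0.22 against 0.08 over all genes. Leaving out single Eed fl/fl libraries changed the number of these genes called by edgeR, and the change over all genes is not given here. With a replicate block 15 were higher and 2 lower, beside 140 and 21 of all 25170 genes. The study lists more than 1 Eed fl/fl clone, and whether the replicate numbers stand for clones is not given in the sources used here. Eed itself differed by −1.95 in these cells (adjusted p = 0.0766, edgeR's quasi-likelihood test with Benjamini-Hochberg adjustment).

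RING1B before OHT split the genes. Of 1584 tested genes whose residual peak overlapped a RING1B peak in Parental −OHT cells, 714 (45.1%, 42.6 to 47.5) were higher in Parental +OHT and 15 lower, with a median log2 fold change of 1.36. Of 662 without RING1B, 17 (2.57%, 1.61 to 4.07) were higher and 18 lower, with a median of −0.11. In RING1B I53S cells the counts were 652 of 1584 and 17 of 662. Genes whose residual peak had an H3K27me3 peak in RING1B I53S +OHT cells were called higher in that line in 52.6% (49.4 to 55.9), and genes without one in 14.8% (13.0 to 16.8). For SUZ12 the shares were 41.3% (38.6 to 44.0) and 13.8% (11.7 to 16.1). Genes with PRC2 marks were also the lower ones before OHT, with medians of 0.296 RPKM with H3K27me3 and 3.18 RPKM without. Whether level or mark goes with the rise was not tested.

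**Figure D4:**
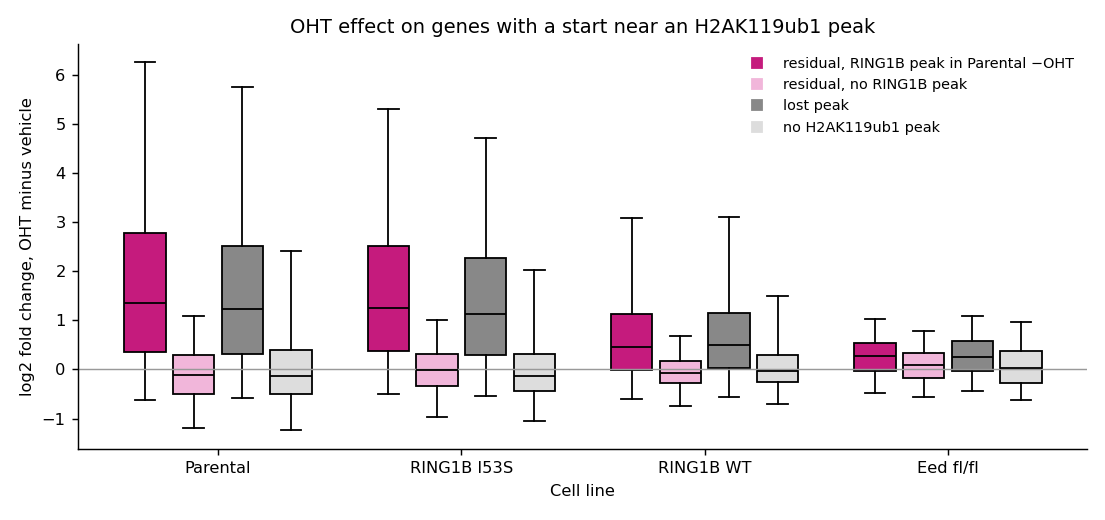
Boxes show the quartiles and median, and whiskers the 5th and 95th percentile, of the log2 fold change (OHT minus vehicle) over tested genes in 4 classes for each line. In Parental cells the median is 1.36 for genes of residual peaks with RING1B, −0.11 for those without and 1.24 for genes of lost peaks.

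Gene lists are set beside all protein-coding genes, of which 2269 of 21923 had a residual peak, and beside the shares of residual-peak genes called higher, 32.5% in Parental and 29.8% in RING1B I53S cells. No enrichment was tested, and a gene near 0 before OHT could be tested only through libraries in which it was higher. Of 39 Hox genes, 18 had a residual peak and 10 a lost peak only, and all 15 tested with a residual peak were higher in Parental and in RING1B I53S cells, while Hoxa9, Hoxa10 and Hoxb13 were higher in RING1B WT. Hoxb13, a posterior Hox factor, had 0.658 and 2.23 CPM (read counts scaled to library size) in Parental −OHT, 34.9 and 33.8 in Parental +OHT, 1.31 and 0.578 in RING1B I53S −OHT, and 17.0 and 25.2 in RING1B I53S +OHT. Its groups did not overlap in either line. Hoxa10 was at 0 in both Parental −OHT libraries and at 16.8 and 14 CPM with OHT. Of 63 other homeobox and paired-box regulators, a list that also holds the bHLH factor Hand1, 49 had a residual peak, and 36 of 44 tested were higher in Parental, 34 in RING1B I53S and 5 in RING1B WT cells. Otx1, a factor of the anterior brain, rose by 5.26 (SE 0.49) in Parental and 3.64 (SE 0.41) in RING1B I53S cells on the log2 scale. Pitx1, a hindlimb regulator, rose by 7.41 (SE 0.64) and 5.0 (SE 0.51).

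Of 46 Gata, Sox, T-box, Forkhead and Zic regulators, 35 had a residual peak. Among 30 tested, 23 were higher and 2 lower in Parental cells, 22 and 2 in RING1B I53S cells, and 0 in RING1B WT cells. Gata2, a blood regulator, was at 3.87 and 2.23 CPM in Parental −OHT and 22.7 and 26.3 in Parental +OHT. Of 15 proneural bHLH genes 12 had a residual peak, and 5 of 8 tested were higher in Parental and 3 in RING1B I53S cells. Neurog1, second in the ranking of peaks, was at 1.15 and 0.865 CPM in Parental −OHT and 2.56 and 1.08 in Parental +OHT, so that the groups overlapped, and was not called. In RING1B I53S cells it was at 0.847 and 0.675 CPM without and 1.98 and 2.26 with OHT. The groups did not overlap there, and the difference of 1.46 on the log2 scale was not called. Signalling genes (ligands, receptors and inhibitors) had a residual peak in 40 of 52, and 23 of 36 tested were higher in Parental, 21 in RING1B I53S and 2, Wnt3 and Wnt9a, in RING1B WT cells. Wnt3, a ligand of the canonical Wnt pathway, went from 1.15 and 0.865 to 21.9 and 24.2 CPM in Parental cells and from 1.85 and 0.771 to 15.7 and 22.6 in RING1B I53S cells.

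Among 35 PRC1 and PRC2 subunit genes, 12 had a residual peak, and 4 were higher in Parental and 3 in RING1B I53S cells, with Cbx8 and Pcgf5 among them in both lines, which is near the share of all residual-peak genes. Cbx8, a canonical PRC1 subunit, went from 1.48 and 0.865 CPM to 26.2 and 31.3. Of 24 germline and meiosis genes 6 had a residual peak, and 5 of the 6 were higher in Parental and in RING1B I53S cells. Mael, which acts in transposon silencing in germ cells, was at 11.4 and 12.4 CPM in Parental −OHT, 97.0 and 106 in Parental +OHT, 5.71 and 6.62 in RING1B WT −OHT and 15.3 and 26.8 in RING1B WT +OHT. All treated values of Mael lay above the untreated ones of the same line. Of 26 imprinted genes 10 had a residual peak, and 5 were higher in Parental and 5 in RING1B I53S cells. Grb10, under the widest residual peak, was at 8.55 and 15.2 CPM in Parental −OHT, 39.98 and 63.5 in Parental +OHT, 9.78 and 14.2 in RING1B I53S −OHT and 36.0 and 65.5 in RING1B I53S +OHT. It was called higher in both lines, so a wide residual peak and a rise in RNA occurred at the same gene. Of 18 housekeeping genes 1 had a residual peak, and 0 were called.

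Pluripotency factors moved less evenly. Of 18, 9 had a residual peak: Klf2, Nr5a2 and Sox2 were lower and Dppa3 higher in Parental cells, and Klf2 lower in RING1B I53S cells. Sox2, a core pluripotency factor, went from 157 and 240.1 CPM to 54.3 and 46.8 in Parental cells (log2 fold change −1.97, SE 0.23). In RING1B I53S cells it was at 172 and 189 CPM without and 91.0 and 60.7 with OHT, a difference of −1.24 that is under the fold required for a call. Klf4 was at 93.6 and 101.7 CPM in Parental −OHT and 67.8 and 86.4 in Parental +OHT, and was not called. Of 10 cell cycle inhibitors and D cyclins, 5 had a residual peak, and Ccnd2, Cdkn1c and Cdkn2c were higher in both lines.

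The genes with the lowest adjusted p for the OHT effect included Ccnd2, which encodes cyclin D2. Its level was 2.47 and 4.33 CPM in Parental −OHT, 195 and 167 in Parental +OHT, 2.39 and 3.08 in RING1B I53S −OHT, 85.0 and 87.2 in RING1B I53S +OHT, 2.54 and 5.30 in RING1B WT −OHT and 13.2 and 23.2 in RING1B WT +OHT. The groups did not overlap in any line, and the rise of 5.78 (SE 0.34) in Parental cells had an adjusted p of 1.12e-09 by edgeR's quasi-likelihood test with Benjamini-Hochberg adjustment. Crabp1, a retinoic acid binding protein, went from 24.1 and 18.5 to 166 and 167.0 CPM in Parental cells and from 25.3 and 22.5 to 120.03 and 142 in RING1B I53S cells. RING1B WT cells had 25.7 and 20.9 CPM without and 54.1 and 54.7 with OHT, a difference of 1.24 that was not called. Col4a1 and Col4a2, neighbouring genes for basement membrane collagen, rose by 3.28 (SE 0.25) and 3.49 (SE 0.30) in Parental and by 3.17 and 3.37 in RING1B I53S cells. Hand1, a bHLH factor of trophoblast and heart, rose by 6.33 (SE 0.46) in Parental, 3.19 (SE 0.35) in RING1B I53S and 2.06 (SE 0.43) in RING1B WT cells. Ecel1, a neuronal endopeptidase, rose by 6.0 (SE 0.46) and 4.02 (SE 0.37) in the first pair of lines.

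Fewer genes fell. Etv5, an ETS factor downstream of FGF signalling, went from 327 and 347 to 70.9 and 67.6 CPM in Parental cells, from 331 and 372 to 113 and 127 in RING1B I53S cells, and in RING1B WT cells from 346 and 424 to 323 and 298. In Parental and RING1B I53S cells every treated value lay far below the untreated ones, and in RING1B WT cells a difference of −0.29 on the log2 scale was not called. Sept1, a septin, went from 349 and 334 to 49.9 and 37.4 CPM in Parental and from 300.2 and 283 to 70.4 and 71.2 in RING1B I53S cells. Sall1, a zinc finger factor, fell by 2.49 (SE 0.22) in Parental and by 1.76 (SE 0.22) in RING1B I53S cells. Myc fell by 1.62 (SE 0.28) and 2.13 (SE 0.29). In RING1B WT cells the genes that fell were Ina, a neuronal intermediate filament (16.8 and 25.4 to 7.64 and 6.0 CPM), and Spry4, a feedback inhibitor of FGF signalling (4.23 and 12.4 to 1.09 and 1.35 CPM). Both calls were lost without replicate 2 of RING1B WT −OHT or of RING1B WT +OHT, and that of Spry4 also without replicate 1 of RING1B WT +OHT.

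**Figure D5:**
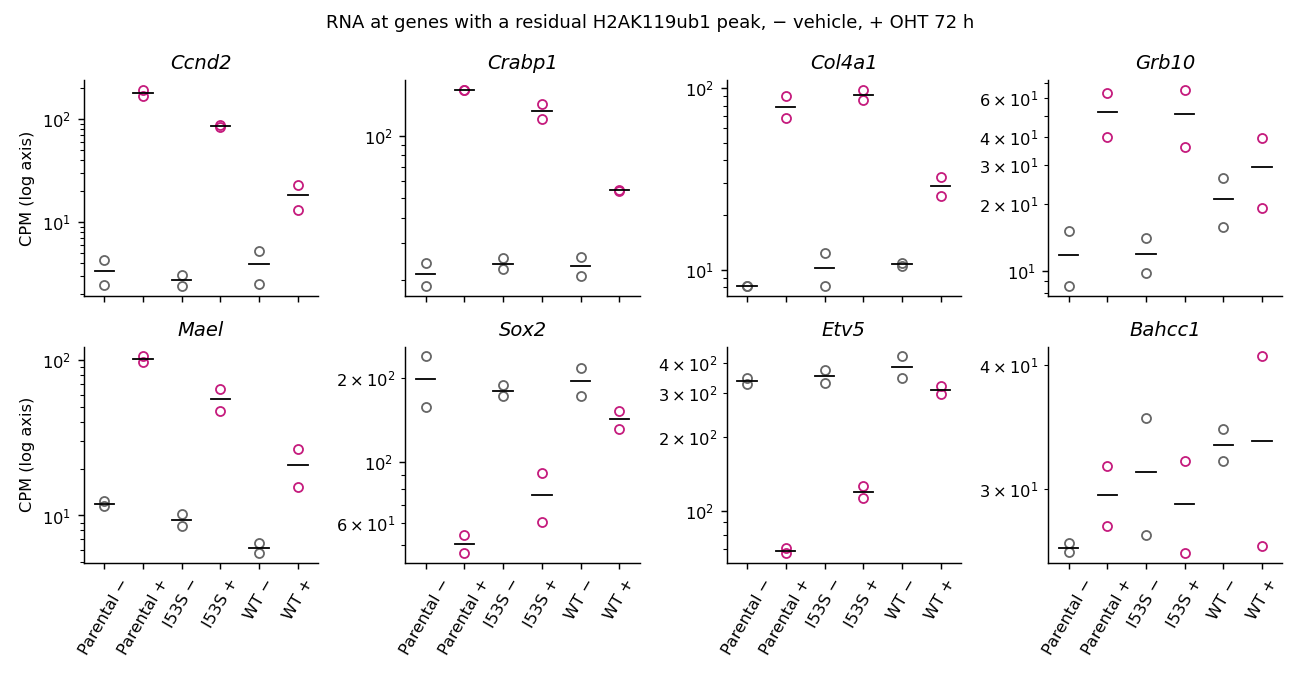
Circles are the CPM of each library on a log axis and short lines the mean of 2, for vehicle (grey) and OHT (magenta) in 3 lines at 8 genes with a residual peak. Ccnd2 reaches 195 and 167 CPM in Parental +OHT, Etv5 falls to 70.9 and 67.6, and Bahcc1 stays between 25.8 and 40.8 over all 12 libraries.

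At the best-ranked peaks, genes were called higher or were not called in the Parental and RING1B I53S lines. Fgfr2, an FGF receptor, rose by 3.27 (SE 0.38) in Parental and 3.54 (SE 0.40) in RING1B I53S cells, and Plxnd1, a semaphorin receptor, by 2.92 (SE 0.39) and 2.90 (SE 0.38). Hs3st3b1, a heparan sulfate sulfotransferase, rose by 2.40 (SE 0.31) in Parental cells and differed by 0.96 in RING1B I53S cells, which was not called. Ntn1 was at 52.9 and 41.9 CPM in Parental −OHT and 26.2 and 26.3 in Parental +OHT, a difference of −0.85 that was not called. Bahcc1 differed by 0.18 (SE 0.23) in Parental and −0.10 (SE 0.23) in RING1B I53S cells. Zfp36l2 and Irf2bpl differed by −1.01 and −0.66 in Parental cells and were not called. The most abundant RNAs with a residual peak were CT010467.1 and Gm26917 on chromosome 17, at 15276 and 24321 and at 13372 and 18343 CPM in Parental −OHT, and neither was called in any line. Behind them came Asns, an asparagine synthetase, which went from 2831 and 3280 to 1383 and 1261 CPM in Parental cells (−1.21, not called), and Slc2a3 and Fkbp4, which were not called.

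Markers of the cells were followed over the same libraries. All 8 ESC markers were detected in every group, with a summed level of 5135 to 6440 CPM in Parental −OHT, 2737 to 2884 in Parental +OHT, 4359 to 5562 in RING1B I53S −OHT and 2729 to 2878 in RING1B I53S +OHT. They did not move alike. In Parental cells Dppa5a, the most abundant, went from 1943 and 2377 to 1570 and 1767 CPM. Tdgf1 went from 889 and 1150 to 116 and 82.6 CPM, and Zfp42 from 682 and 814 to 203 and 163. Klf4 in RING1B I53S cells was at 90.4 and 88.9 CPM without and 112 and 123 with OHT, and was not called. The sum of 6 primitive endoderm markers was 3.09 to 3.54 CPM in Parental −OHT, 48.7 to 50.8 in Parental +OHT and 38.6 to 38.7 in RING1B I53S +OHT. Before OHT it was 4.63 to 4.70 CPM in RING1B I53S cells. Gata6 and Sox7 were at 0 in both Parental −OHT libraries, and Sox7 in both of RING1B I53S −OHT. The 6 trophoblast markers summed to 165 to 198 and 366 to 370 CPM in Parental cells without and with OHT, the 4 mesoderm markers to 8.65 to 12.4 and 25.9 to 29.9, the 3 neurectoderm markers to 6.55 to 8.97 and 38.7 to 42.6, and the 3 fibroblast markers to 11.9 to 14.1 and 46.0 to 48.3. Among the trophoblast markers Krt8, Krt18 and Cdx2 were higher in Parental cells. Krt8 and Krt18, keratins of simple epithelia, went from 39.8 and 35.7 to 108 and 112 CPM and from 36.6 and 31.2 to 159.6 and 180.6 CPM. Tfap2c, at 111 and 91.2 CPM without and 84.1 and 55.2 with OHT, and Eomes were not called. In RING1B I53S cells those sums were 172 to 209, 10.2 to 13.9, 6.07 to 9.93 and 14.8 to 15.4 CPM without OHT, where Elf5 was at 0, and with OHT reached 274 to 314, 23.2 to 27.9, 44.0 to 44.2 and 38.9 to 50.2 CPM in the same order. In RING1B WT cells without and with OHT, the sums were 3.75 to 4.54 and 8.83 to 12.6 CPM for primitive endoderm, 159 to 167 and 204 to 229 for trophoblast and 8.5 to 12.2 and 12 to 14.2 for mesoderm. They were 5.96 to 6.87 and 12.2 to 17.1 CPM for neurectoderm, 10.04 to 11.8 and 20.3 for fibroblast, and 4588 to 5507 and 4479 to 4660 for ESC markers. Untreated Eed fl/fl cells had sums of 22.6 to 35.6 CPM for primitive endoderm, 186 to 243 for trophoblast and 10.5 to 16.2 for mesoderm. Their sums were 16.9 to 18.1 CPM for neurectoderm, 15.9 to 26.9 for fibroblast and 4819 to 5848 for ESC markers. Of these markers, Gata4, Gata6, Sox7, Sox17, Cdx2, Eomes, Tfap2c, T, Nes, Pax6, Sox1, Sox2, Klf4 and Esrrb themselves had a residual peak. The part of other cell types in the RNA results was not tested, and in bulk RNA more cells of a type and more RNA per cell cannot be told apart.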

How the data were processed

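Peak lists of 70 ChIP and 4 input libraries and counts of 16 RNA-seq libraries were analysed. For ChIP-seq the authors used Bowtie 1.2.2 on mm10, kept unique hits, removed duplicates and called peaks per library with MACS2 2.1.1 against an input of E14 cells; the deposited value of a peak is the −log10 p-value, and the spike-in scaling of histone libraries does not enter it. Peak numbers in the lists skip, so some peaks were removed by a step not given in the sources used here. The 48 h libraries follow the sample titles and the study's methods, while another label gives 72 h for all. RNA was mapped with STAR 2.7 and counted with featureCounts, and raw counts per gene name were deposited; strand was not used, so overlapping and antisense genes cannot be told apart. The deposited comparison tables (fold changes and p-values of the study) and normalized tables were not used. The reference is GRCm38 with GENCODE M21, and 0 of 21 chromosomes had a peak past its end.

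Overlaps of at least 1 bp were computed in Python 3.11.15 (numpy 2.4.6, pysam 0.24.0), with 95% Wilson intervals. Counts were fitted in R 4.3.3 with edgeR 4.0.16 (TMM, filterByExpr, quasi-likelihood, 6 groups in 1 fit, 18154 of 55341 gene names; the Eed fl/fl libraries apart, 25170). Standard errors were derived from the F statistic. Replicates are labelled only as such, so p-values measure the spread between these libraries, which may be technical. Levels per length used exon-union lengths. Of the peaks, 787 served 2 or more genes. On simulated counts with 200 of 18154 genes changed, 90% at a log2 size of 2 and 96% at 3 were recovered for the Parental effect, with 2 false calls; for the Eed design, on 25170 genes, 75% and 91%, with 4.

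Named genes were those at the 10 best-ranked peaks, the 5 lowest adjusted p in each direction in Parental and RING1B I53S cells, 3 for the other comparisons, the 5 most abundant, and up to 4 per gene list; names given beside a count follow the count itself and were chosen after their values were seen. The members, gene lists and tests were chosen with earlier results of these data known. DESeq2 1.42.0, RLE scaling, other filters, thresholds, overlaps and scores, a replicate block and each library left out were alternatives. A few genes that these rules would name are not reported here.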

Additional observations from a re-analysis of the deposited data

Results flagged for a closer look

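At 6 genes with a residual peak the response to OHT was not the same in the RING1B WT and Parental lines: the difference in log2 fold change itself passed edgeR's quasi-likelihood test. It was −3.54 for Ccnd2, −1.70 for Cd24a and −3.43 for Cdkn1c, which rose more in Parental cells, and 1.99 for Etv5, 1.97 for Sall1 and 2.39 for Sept1, which fell more in Parental cells. Adjusted p-values ran from 2.63e-05 for Sept1 to 0.00219 for Cdkn1c by edgeR's quasi-likelihood test with Benjamini-Hochberg adjustment. Cd24a, a cell surface glycoprotein, was at 73.6 and 69.8 CPM in Parental −OHT, 233 and 187 in Parental +OHT, 92.2 and 108 in RING1B WT −OHT and 95.1 and 82.1 in RING1B WT +OHT. In Parental cells the treated libraries lay above the untreated ones, and in RING1B WT cells they overlapped. Cdkn1c, a CDK inhibitor from an imprinted locus, was at 1.15 and 2.23 CPM in Parental −OHT and 25.8 and 27.8 in Parental +OHT, against 2.22 and 1.66, and 2.68 and 3.18, in RING1B WT cells. Crabp1 and Dppa3 shared the adjusted p of Cdkn1c, with a difference of −1.72 and −1.59, by edgeR's quasi-likelihood test with Benjamini-Hochberg adjustment.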

How the results depend on the processing

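With a score of at least 20 in both lists 833 residual peaks remained, of which 94.0% were at promoters, 96.4% had an untreated H2AK119ub1 and 88.0% a RING1B peak in Parental −OHT, and 62.9% an H3K27me3 and 75.3% an MTF2 peak in RING1B I53S +OHT. With 50% of the peak covered, these last 4 shares were 81.3%, 67.9%, 36.6% and 42.2%, and with a score of at least 20 for the other peak 57.0%, 60.6%, 25.6% and 29.2%. A promoter of 1 kb gave 85.4%. Chosen after seeing the data, leaving out chromosome 11 gave 91.1% at promoters, 83.5% with untreated H2AK119ub1 and 73.4% with RING1B. The second MTF2 library, also chosen so, gave 74.2%. Leaving out peaks that overlap an input peak was chosen so too and moved none of these shares past its interval. All inputs with a list were of MTF2 KO lines.

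No count over all genes stands beside the counts in this paragraph, so they show only how far each one moved. Counts of called genes, higher and lower together, were 764 in Parental, 683 in RING1B I53S and 58 in RING1B WT cells. Without a fold threshold they were 1153, 1026 and 91, with peaks of that score 313, 281 and 25, and with no filter on low counts 111 in RING1B WT. The WT minus Parental difference gave 89, 158 with no filter and 48 at the score of 20. Leaving out a library gave 632 to 707 in Parental, 483 to 685 in RING1B I53S, 5 to 61 in RING1B WT, 25 to 91 for the difference and 1 to 54 in Eed fl/fl cells. In RING1B WT, replicate 2 decided this: 5 were called without that of −OHT and 7 without that of +OHT. For the difference, 50 were called without replicate 2 of Parental −OHT, 44 and 34 without replicates 1 and 2 of Parental +OHT, 43 and 25 without replicate 1 of RING1B WT −OHT and +OHT. In Eed fl/fl cells DESeq2 gave 5, and leaving out replicates 1 and 2 of −OHT gave 4 and 54, and of +OHT 1 and 6.

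Correlations of same-numbered libraries ran from −0.0033 to 0.301 over the 6 groups, so their numbers were not taken to pair them. In Eed fl/fl the single correlation was 0.459, and neither it nor the labels settle whether the numbers pair. With a replicate block the counts were 784, 698, 69, 113, 0 for RING1B I53S minus Parental, and 17 in Eed fl/fl cells. Of 1418 values of named genes under alternatives, 1307 kept direction and call, 111 lost the call and 0 changed sign. The causes were not tested.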
